A study of Homo sapiens with 12 samples.

Results

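The proteasome genes described here are the 48 protein-coding genes whose symbol consists of PSM, a letter between A and G and a number, out of 61860 genes in each count table. Membership was set by symbol alone, without a measured value. The family itself, and the lists of partner genes below, were chosen with earlier results of these data known. RNA was sequenced in 12 libraries of 22Rv1, a human prostate carcinoma line derived from a xenograft, in a study concerned with RB, ETS1 and CDK4/6 inhibitors. One experiment compared 3 libraries of cells treated with an siRNA to the zinc finger gene ZNF783 with 3 control libraries of its own. The other compared 3 libraries of cells given siRNA against ETS1, a transcription factor of the ETS family, with its own 3 controls. All cells were grown in RPMI-1640 medium with serum, and the labels name neither siRNA sequence nor harvest time. Each gene's level was taken over a whole culture of a single line, so fewer cells with a transcript and less of it per cell cannot be told apart. Whether replicates were grown as separate cultures is not stated, and the p-values reflect spread between samples that could be technical.

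The proteasome degrades proteins tagged with ubiquitin. Its 20S core is a barrel of outer alpha rings (PSMA genes) and inner beta rings (PSMB genes), of which PSMB5, PSMB6 and PSMB7 carry the catalytic sites. The 19S regulator binds the barrel's ends: ATPases (PSMC genes) unfold the substrate, while non-ATPase subunits (most PSMD genes) bind ubiquitin and cleave it off. PSME genes encode alternative activators, PSMF1 an inhibitor, and PSMG1 to PSMG4 with PSMD5, PSMD9 and PSMD10 encode chaperones of assembly that are not part of the finished particle. The subunit genes are known to be induced together by NFE2L1 when proteasome activity is short, and the core is the target of proteasome inhibitors used against myeloma.

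Total counts ran from 13518177 to 48996691 per library. ETS1 itself had 0, 3 and 0 counts with ETS1 siRNA and 0, 1 and 0 in its controls, at or under the floor of 3 counts, so its knockdown could not be checked. ZNF783 stood at 80.5% of control with its own siRNA (adjusted p = 2.46e-05, edgeR) and at 76.5% of control with ETS1 siRNA, where it had 12.5, 18.7 and 18.5 CPM against 21.0, 21.6 and 22.3 CPM in controls (adjusted p = 0.258, edgeR). A lower ZNF783 transcript was thus not shown to be particular to the ZNF783 siRNA. ETS1 siRNA replicate 1 stood apart: its counts differed from those of replicates 2 and 3 by a chi-square of 40.3 and 38.9 per degree of freedom, against 1.36 to 2.93 for every other pair of replicates. Results of that experiment are therefore given with and without it. All 9 prostate markers examined, HOXB13 among them, reached at least 1 CPM (counts scaled to a fixed library size) in every library, as did 1 of 6 markers of leukocytes, endothelium and fibroblasts, COL1A1.

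Of the 48 genes, 43 passed the expression filter in every comparison. Levels were compared between genes as TPM (counts divided by exon length and scaled to a fixed total). In the ZNF783 controls the highest was PSMB4, a core beta subunit, at 651 ± 19.5 TPM (SD, n = 3), followed by PSMA7, an alpha ring subunit, at 438 ± 18.1, PSMB5, the chymotrypsin-like catalytic subunit, at 404 ± 13.8, and PSMD2, the large scaffold subunit of the 19S base, at 399 ± 1.73. PSMB5 and PSMD2 did not differ beyond their spread. In the ETS1 controls PSMB4 and PSMA7 again came first and second, at 622 ± 9.27 and 437 ± 14.6 TPM, but PSME1 came next at 345 ± 7.18, which did not differ beyond its spread from PSMC3, an ATPase, at 344 ± 6.24. Subunits of one particle were thus measured at unequal levels. The ATPases, which form a single ring, ran from 45.4 TPM for PSMC1 to 326 TPM for PSMC3 in the ZNF783 controls, and the non-ATPase subunits from 45.3 TPM for PSMD14 to 399 TPM for PSMD2. The core assembly chaperones lay lower, between 11.9 TPM for PSMG4 and 107 TPM for PSMG3. The exon length used joins all annotated exons of a gene: 6161 bases for PSMC1, 7698 for PSMD14 and 10418 for PSMG4, against 2276 for PSMC3. TPM depends on this length, and the isoforms expressed were not measured. As CPM (scaled by trimmed means of M values), which ignores length, PSMC1 had 64.1 and PSMC3 170 in the ZNF783 controls.

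Most of the lowest tested genes, though not PSMG4, shared a feature of annotation. PSMA1, PSMA2, PSMA6, PSMB10 and PSMD9 have exons in common with a protein-coding gene annotated on the same strand, and reads that fall on exons of more than 1 gene are not counted at the default setting of the counting tool. These 5 measured 1.99 to 35.9 TPM (median 6.98) in the ZNF783 controls, against 11.9 to 651 TPM (median 131) for the other 38. The levels of these 5 are for that reason uncertain; the part of the shared exons in them was not tested. Across strands, 19 members overlap an exon of another gene, PSMC1 over 75.8% of its exon length with NRDE2. The kit marked strand, but the headers of the counts show no strand option in counting. At the default setting, reads on such overlaps are then counted for neither gene. The levels of these members, PSMC1 among them, are therefore uncertain too, and the effect was not tested. Pseudogenes named after PSMA6 held 30.7% of the counts of PSMA6 and its pseudogenes together.

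**Figure D1:**
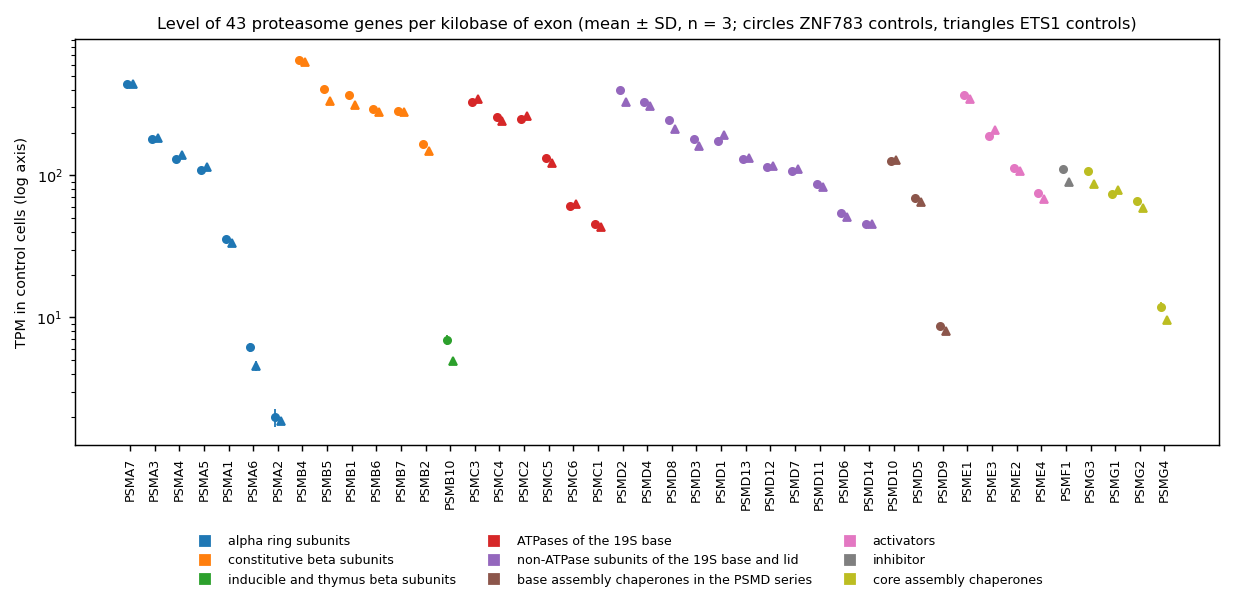
TPM (log axis, mean ± SD, n = 3) of the 43 tested proteasome genes in control cells, circles for the ZNF783 controls and triangles for the ETS1 controls, coloured and ordered by role. PSMB4 is highest at 651 TPM in the ZNF783 controls, and PSMA2, PSMA6, PSMB10 and PSMD9, which share exons with a neighbouring gene, lie under 10 TPM.

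The remaining 5 genes were at or near 0 in all 12 libraries. PSMA8, the alpha subunit of the spermatoproteasome of the testis, had 0 counts, and PSMB11, the thymus-specific beta subunit, had 5. The interferon-inducible subunits PSMB8 and PSMB9, which replace PSMB5 and PSMB6 in the immunoproteasome, had 1 and 7 counts. PSMB3, a constitutive core subunit present in every 20S particle, had 8 counts over all libraries: 2, 2 and 1 with ZNF783 siRNA against 0, 0 and 0 in its controls, and 0, 1 and 1 with ETS1 siRNA against 0, 1 and 0 in its controls. No library exceeded 3 counts for any of these genes, and no fold change was formed.

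For PSMB3, PSMB8 and PSMB9 the low counts extended to the surrounding genes. PSMB3 (GRCh38, chromosome 17, 38752736 to 38764231, plus strand) is flanked by EPOP, MLLT6, CISD3 and PCGF2 on one side and PIP4K2B, CWC25 and C17orf98 on the other, and each of these 7 had between 1 and 32 counts in all 12 libraries together. The next genes outward on that second side, RPL23 and LASP1, had 150111 and 62948 counts. PSMB8 and PSMB9 lie in the major histocompatibility region of chromosome 6, where 88 of 137 protein-coding genes between HLA-F and HLA-DPB1 (64.2%) had at most 36 counts over the 12 libraries, against 24.0% of all protein-coding genes. For PSMA8 only 1 of 12 neighbours was that low. A count near 0 for PSMB3, PSMB8 or PSMB9 therefore cannot be read as lack of expression, and the cause was not tested.

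PSMB10, the inducible counterpart of PSMB7, was the one inducible subunit with a usable count. It measured 2.96, 2.97 and 3.47 CPM with ZNF783 siRNA against 3.003, 2.73 and 3.17 in its controls, and 1.51, 1.92 and 1.62 CPM with ETS1 siRNA against 2.14, 2.10 and 2.15 in its controls (CPM scaled by trimmed means of M values, TMM, here and below). The ZNF783 groups overlapped, while all ETS1 siRNA values lay under their controls, a difference that did not pass the test (log2 fold change -0.32, SE 0.14, adjusted p = 0.275, edgeR). Within the PSMB10 and PSMB7 pair, PSMB10 made up 2.60 ± 0.265% of the summed TPM with ZNF783 siRNA and 2.40 ± 0.142% in its controls, and 1.61 ± 0.219% with ETS1 siRNA and 1.73 ± 0.0565% in its controls (n = 3 each). Neither difference passed an exact two-sided permutation test (p = 0.5 for both; 3 against 3 samples cannot go below 0.1).

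With ZNF783 siRNA, proteasome genes fell more often than they rose. Of the 43 tested, 17 were called lower (39.5%), beside 13.8% of all 17630 genes tested, and 2 were called higher (4.65%), beside 11.3% of all genes (edgeR quasi-likelihood test, Benjamini-Hochberg adjustment over all genes, adjusted p below 0.05). The changes were small: every called gene lay between 86.6% and 111% of its control mean. The median log2 fold change of the 43 genes was -0.068, against 0.0017 over all genes. In 22 of the 43 all 3 siRNA libraries were under all 3 controls, beside 19.8% of all genes, and in 2 they were all above, beside 18.3%. The summed level of the 48 genes was 7005 ± 35.9 TPM with ZNF783 siRNA and 7322 ± 32.2 TPM in controls (SD, n = 3 each), 95.7% of control, with no overlap between the groups (exact two-sided permutation p = 0.1, the smallest possible here). The 12 libraries of both experiments were also fitted together, sharing one estimate of spread. There 2 genes were called lower, PSMC4 and PSMD3, beside 2.69% of all genes, and 0 higher, beside 1.52%. In that fit 7 of the 43 had an unadjusted p below 0.05 (edgeR), beside 3424 of 19594 genes. With the Wald test of DESeq2 on the 6 libraries, 10 were called lower, beside 8.37% of all genes, and 0 higher, beside 6.92%. When each library was left out in turn, PSMA7, PSMB5, PSMC4, PSMD2, PSMD3, PSMD4, PSMD13 and PSMG3 passed in all 6 fits and PSMC3, PSMD14 and PSMG2 in 5. PSMD11 passed in 4, PSMA3 and PSMB6 in 3, PSMA5 and PSMB4 in 2, and PSMD5, PSME1 and PSME3 in 1.

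**Figure D2:**
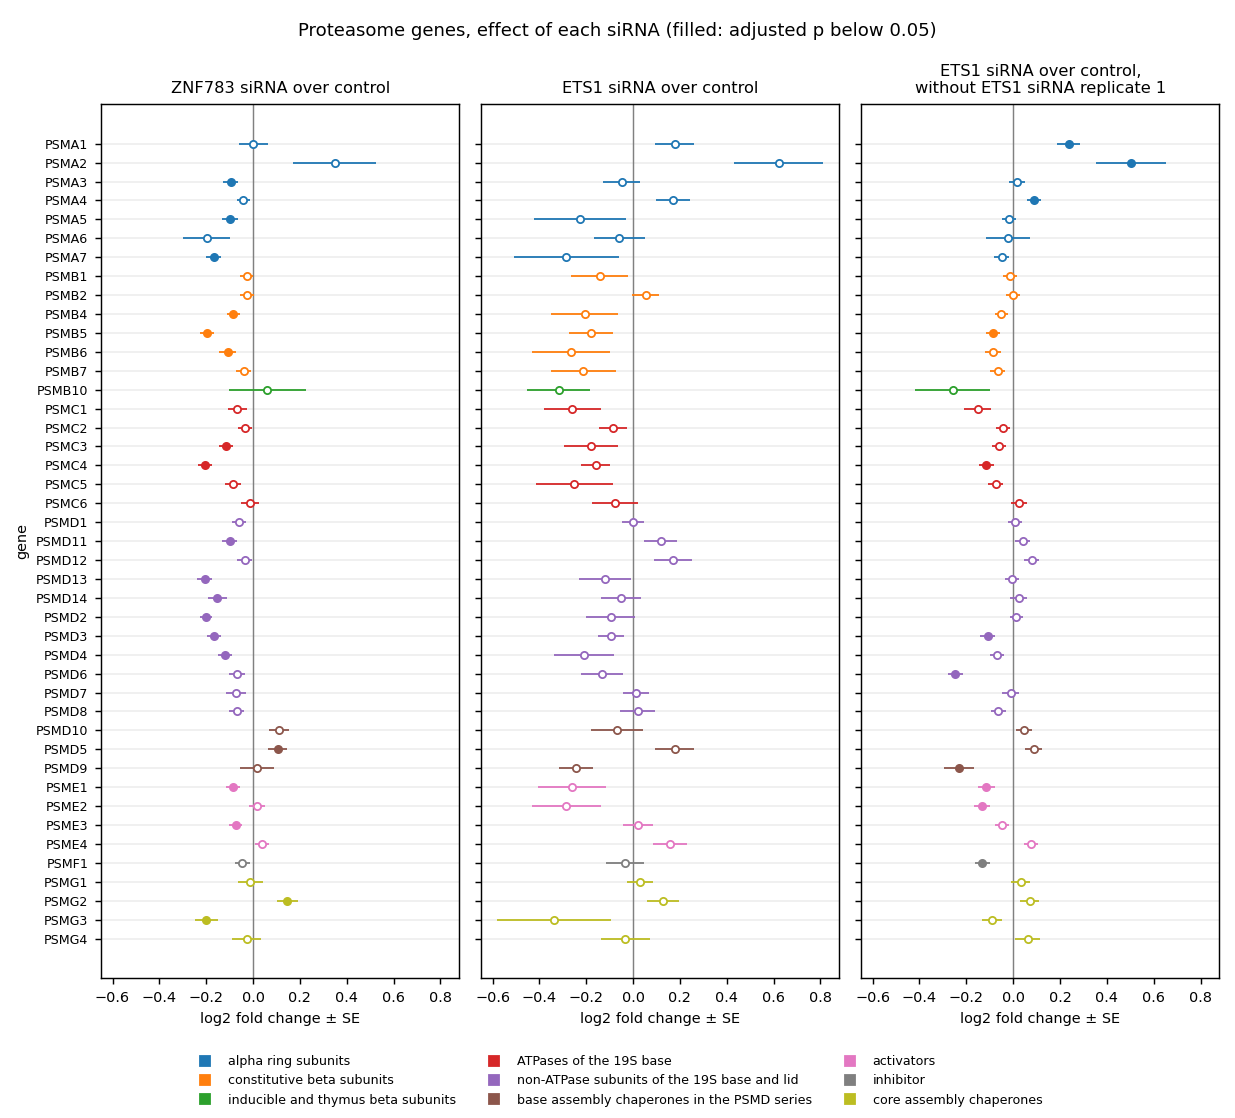
Log2 fold change ± SE of the 43 tested proteasome genes with ZNF783 siRNA (left), with ETS1 siRNA (middle) and with ETS1 siRNA without its replicate 1 (right), each over its own controls, filled where the adjusted p was below 0.05. In the left panel 17 genes are called lower and 2 higher; in the middle panel none is called, and the bars are wider.

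PSMD2 gave the smallest adjusted p of the 43. It stood at 438, 437 and 427 CPM with ZNF783 siRNA, against 502, 503 and 492 CPM in controls, 87.0% of control (-0.20 as a log2 fold change, SE 0.025, edgeR adjusted p = 3.36e-08). The groups were far apart relative to their spread. PSMC4, an ATPase of the base, measured 122, 122 and 123 CPM, against 138, 143 and 141 CPM in controls (-0.21, SE 0.031, adjusted p = 1.93e-06, edgeR). PSMD13, a lid subunit, had 124, 122 and 124 CPM with the siRNA, against 147, 139 and 142 CPM in controls (-0.21, SE 0.032, adjusted p = 2.26e-06, edgeR). Neither gene's groups overlapped.

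Among the catalytic subunits, PSMB5 fell to 144, 142 and 143 CPM with ZNF783 siRNA, against 158, 169.8 and 164 CPM in controls (-0.20, SE 0.031, adjusted p = 4.32e-06, edgeR). PSMB6, the caspase-like subunit, fell to 91.7, 92.0 and 87.7 CPM, against 101, 97.1 and 95.0 CPM in controls (-0.11, adjusted p = 0.0241, edgeR). PSMB7, the trypsin-like subunit, had 116, 112 and 112 CPM with the siRNA and 116, 115 and 119 CPM in controls, which overlapped (-0.040, adjusted p = 0.413, edgeR). The 3 catalytic genes thus differed in their fold changes, although a difference between them was not tested. Of the 6 constitutive beta genes tested, 3 were lower, the other being PSMB4, and of the 7 alpha ring genes 3 were lower, PSMA7, PSMA3 and PSMA5. PSMA7 fell to 161, 154 and 152 CPM, against 179, 182 and 166 CPM in controls (-0.17, SE 0.033, adjusted p = 0.000139, edgeR).

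The 19S regulator held most of the rest. Of the 11 non-ATPase subunits 6 were lower, and all 11 had a negative log2 fold change, between -0.21 and -0.036. PSMD3, which helps hold the lid together, fell to 179.9, 181 and 186 CPM with ZNF783 siRNA, against 203, 208 and 201 CPM in controls (-0.17, SE 0.029, adjusted p = 2.15e-05, edgeR). The ubiquitin receptor PSMD4 fell to 205, 209.6 and 219 CPM, against 228, 237 and 223 CPM in controls (-0.12, adjusted p = 0.00198, edgeR). PSMD14, the lid deubiquitinase that removes ubiquitin chains, fell to 71.8, 69.2 and 75.0 CPM, against 84.0, 79.7 and 76.2 CPM in controls (-0.15, adjusted p = 0.00417, edgeR). All 3 were lower without overlap. PSMD11 was the sixth. Of the 6 ATPases, PSMC4 and PSMC3 were lower, and the others had log2 fold changes of -0.086 to -0.012 that did not pass.

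**Figure D3:**
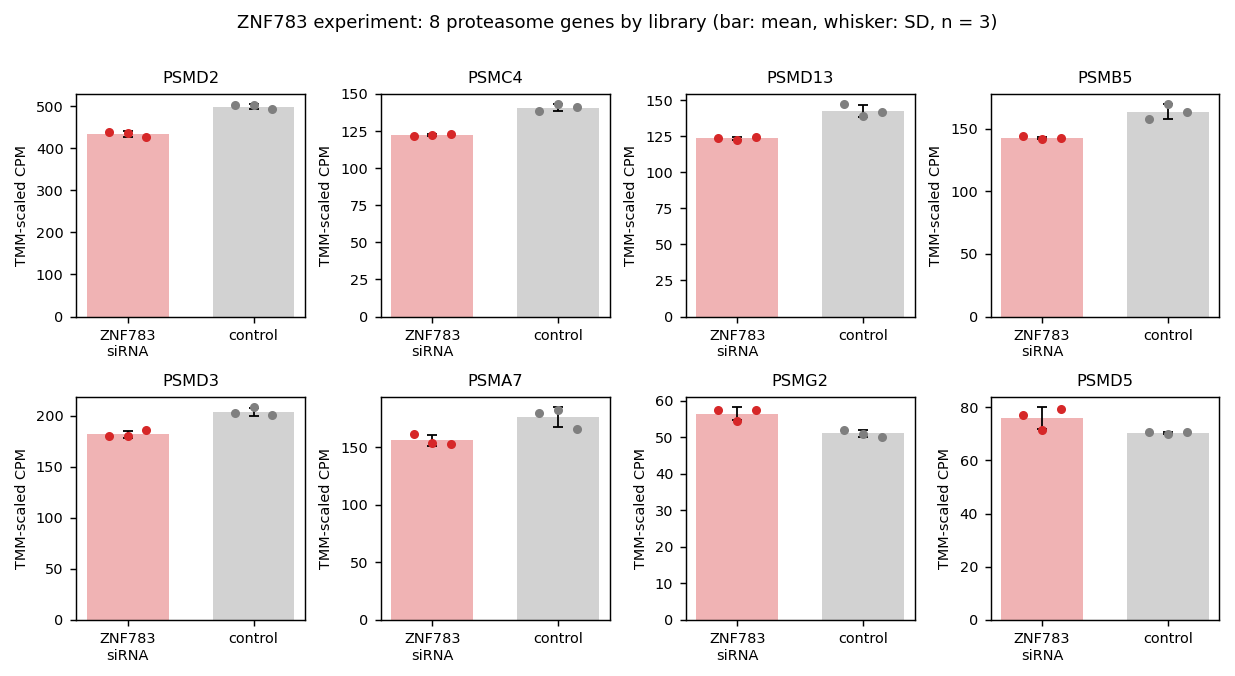
TMM-scaled CPM in each library of the ZNF783 experiment for the 6 genes of smallest adjusted p among those called lower (PSMD2, PSMC4, PSMD13, PSMB5, PSMD3, PSMA7) and the 2 called higher (PSMG2, PSMD5); siRNA in red, controls in grey, bars the mean and whiskers the SD of 3 libraries. The 2 groups do not overlap in any of the 8 panels, and PSMD2 stands at 87.0% of control.

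The genes called higher both encode assembly chaperones. PSMG2, which pairs with PSMG1 to start the alpha ring, measured 57.4, 54.5 and 57.5 CPM with ZNF783 siRNA, against 52.0, 50.9 and 50.2 CPM in controls (0.15, SE 0.044, adjusted p = 0.0102, edgeR). PSMD5, a chaperone of the ATPase ring, had 77.2, 71.4 and 79.3 CPM, against 70.6, 70.1 and 70.7 CPM in controls (0.11, SE 0.041, adjusted p = 0.0495, edgeR), just past the threshold. The chaperones did not move together. PSMG3, the partner of PSMG4, fell to 42.1, 40.8 and 43.2 CPM, against 47.8, 51.3 and 45.7 CPM in controls (-0.20, SE 0.049, adjusted p = 0.00163, edgeR). PSMG1, at 43.6, 43.4 and 38.7 CPM against 43.8, 44.3 and 39.7 CPM in controls, PSMG4, at 28.3, 28.4 and 26.7 against 27.6, 31.2 and 26.8 CPM, and PSMD9, at 18.7, 16.7 and 17.9 against 18.1, 17.6 and 17.2 CPM, had groups that overlapped and did not pass (adjusted p = 0.907, 0.796 and 0.897, edgeR). PSMD10, also called gankyrin, had 80.3, 71.2 and 79.4 CPM against 75.3, 68.8 and 70.2 CPM in controls (0.11, adjusted p = 0.0625, edgeR).

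Among the activators, PSME1 and PSME2 encode the partners of the PA28 ring that opens the core barrel. PSME1 fell to 142, 138 and 143 CPM with ZNF783 siRNA, against 149, 151 and 147 CPM in controls (-0.085, adjusted p = 0.0375, edgeR), whereas PSME2 had 94.4, 93.1 and 93.0 CPM against 90.6, 93.3 and 93.6 CPM (0.017, adjusted p = 0.784, edgeR). The nuclear activator PSME3 fell to 213, 210.5 and 210.1 CPM, against 226, 220.5 and 222 CPM in controls (-0.074, adjusted p = 0.0448, edgeR). PSME4, the large single-chain activator PA200, had 177, 181 and 183 CPM against 174, 174 and 177 CPM in controls, with overlap (0.040, adjusted p = 0.353, edgeR). The inhibitor PSMF1 had 132, 130.4 and 130.2 CPM, all under the controls at 133, 135 and 137 CPM, and did not pass (-0.046, adjusted p = 0.312, edgeR).

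The promoters of 5 genes that fell with ZNF783 siRNA and have a single start in the RefSeq table are shown as examples of the sequence around these starts. They are PSMC4, PSMD13, PSMD3, PSMD14 and PSMC3, printed 5′ to 3′ on the gene's strand (RefSeq, GRCh38.p14) with 250 bases before the start and 20 after it. Capitals mark CCAAT or its reverse complement ATTGG (the box bound by NF-Y), CCGGAAG on either strand (a core that ETS factors bind) and TGACNNNGC on either strand (the core of the antioxidant response element bound by NFE2L1 and NFE2L2); in PSMD14 a pair of CCAAT matches on opposite strands overlaps.
PSMC4 (chr19:39970915-39971184, plus strand): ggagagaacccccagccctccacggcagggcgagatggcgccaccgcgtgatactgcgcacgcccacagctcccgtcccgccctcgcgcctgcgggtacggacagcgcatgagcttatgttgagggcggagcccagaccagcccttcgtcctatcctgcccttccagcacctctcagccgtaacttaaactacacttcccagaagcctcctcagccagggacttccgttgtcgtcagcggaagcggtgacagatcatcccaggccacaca
PSMD13 (chr11:236726-236995, plus strand): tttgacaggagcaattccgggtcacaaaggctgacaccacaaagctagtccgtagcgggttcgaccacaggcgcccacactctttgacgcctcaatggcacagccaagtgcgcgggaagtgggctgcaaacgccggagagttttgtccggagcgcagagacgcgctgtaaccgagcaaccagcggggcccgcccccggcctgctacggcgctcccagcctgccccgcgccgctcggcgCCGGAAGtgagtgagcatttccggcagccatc
PSMD3 (chr17:39980557-39980826, plus strand): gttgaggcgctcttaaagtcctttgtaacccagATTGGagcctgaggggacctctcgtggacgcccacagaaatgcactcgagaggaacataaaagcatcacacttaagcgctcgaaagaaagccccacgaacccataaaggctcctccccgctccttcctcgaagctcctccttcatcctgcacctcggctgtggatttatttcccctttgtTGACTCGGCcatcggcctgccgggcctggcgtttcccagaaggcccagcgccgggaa
PSMD14 (chr2:161308175-161308444, plus strand): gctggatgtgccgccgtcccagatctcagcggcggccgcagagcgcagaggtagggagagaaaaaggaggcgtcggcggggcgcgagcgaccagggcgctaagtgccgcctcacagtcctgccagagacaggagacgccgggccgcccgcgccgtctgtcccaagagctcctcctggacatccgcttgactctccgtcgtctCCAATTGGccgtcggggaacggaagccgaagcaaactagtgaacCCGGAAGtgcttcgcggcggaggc
PSMC3 (chr11:47426420-47426689, minus strand): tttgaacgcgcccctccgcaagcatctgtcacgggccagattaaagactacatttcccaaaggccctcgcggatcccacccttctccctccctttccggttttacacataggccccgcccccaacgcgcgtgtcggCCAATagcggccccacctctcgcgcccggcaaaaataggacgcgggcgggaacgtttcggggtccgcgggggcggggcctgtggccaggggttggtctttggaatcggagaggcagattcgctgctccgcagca
Windows of 300 bases, reaching 50 bases past the start, were found for 42 of the 48 genes (51 starts). CCGGAAG was in 15 of the 51 windows (29.4%), against 12.8% of 22182 windows of protein-coding genes. TGACNNNGC was also in 15 (29.4%), against 13.8%, and CCAAT in 20 (39.2%), against 34.7%. Of the 13 genes called lower with ZNF783 siRNA that have a window, 2 held CCGGAAG, 3 TGACNNNGC and 7 CCAAT. In PSMC4 the one TGACNNNGC match, and in PSMD3 the other of 2, lie past the printed stretch, and in PSMC3 the one match is CCAAT. Such matches describe the letters of these windows only. PSMD14 held 2 CCAAT matches and 1 CCGGAAG match. Of the single-start genes called lower, PSMD11 came next by adjusted p after the 5 shown. It held none of these motifs in its window and is not printed. The 48 genes lie on 17 chromosomes, with 8 on chromosome 14 and 7 on chromosome 17.

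With ETS1 siRNA, no proteasome gene was called in either direction, beside 0.0256% of 19542 genes higher and 0.0205% lower (edgeR). Also by DESeq2 and limma-voom 0 were called. Of all 19542 genes, DESeq2 called 346 higher and 362 lower, and limma-voom 12 and 11. In edgeR 4 proteasome genes had an unadjusted p below 0.05, PSMA2, PSMB10, PSMC4 and PSMD9, beside 3535 of the 19542 genes. The median log2 fold change was -0.084, against 0.0066 over all genes. In 11 of the 43 all siRNA libraries lay under all controls, beside 17.8% of all genes, and in 7 above, beside 17.5%. The summed level was 6691 ± 586 TPM with ETS1 siRNA and 6966 ± 26.1 TPM in controls (n = 3 each; exact two-sided permutation p = 0.9). Summed as TMM-scaled CPM it was 94.7% of control, and as CPM per kilobase 91.8%, with all 3 siRNA libraries under all 3 controls in both (exact two-sided permutation p = 0.1 for each, the smallest possible here).

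Replicate 1 differed from the other siRNA libraries in these genes. The median of the 43 genes against the control mean was -0.27 in ETS1 siRNA replicate 1, -0.032 in replicate 2 and -0.00013 in replicate 3 (log2). Proteasome genes made up 0.485% of all counts in replicate 1, against 0.545% and 0.550% in replicates 2 and 3 and 0.545% to 0.547% in the controls. PSMG3 had 18.5, 37.3 and 37.3 CPM with ETS1 siRNA, against 39.9, 38.3 and 40.2 CPM in controls. PSMA7 had 91.3, 170.3 and 176 CPM, against 177, 172 and 186 CPM in controls. In both, replicate 1 alone was far under the controls. PSME4 went the other way, with 200.5, 174 and 172 CPM against 164, 166 and 160.3 CPM in controls, as did PSMA4, with 282, 241 and 247 CPM against 229, 235 and 220.1 CPM.

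**Figure D4:**
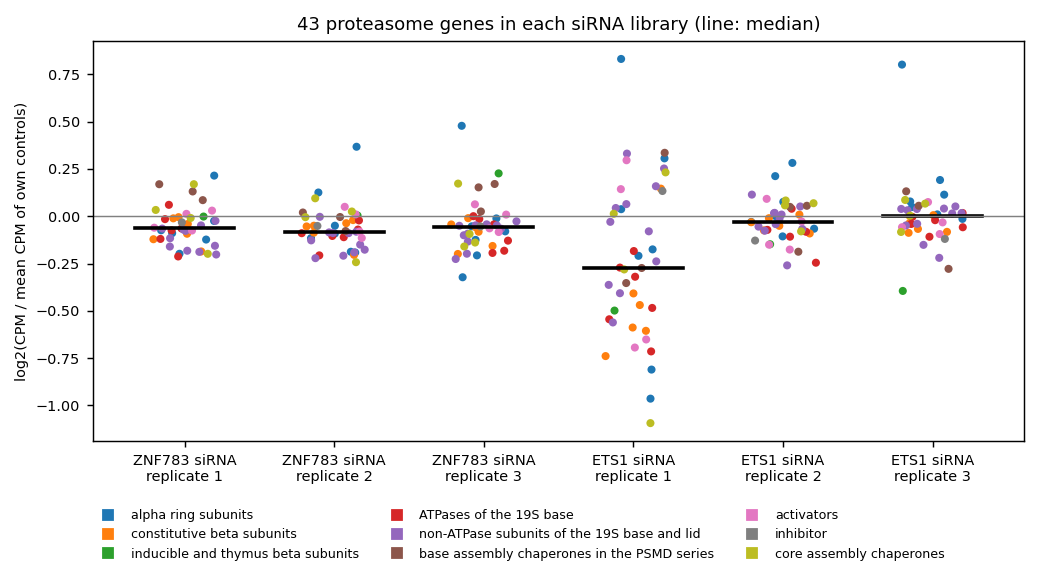
Log2 ratio of the TMM-scaled CPM of each of the 43 tested proteasome genes to the mean of its own controls, for each ZNF783 siRNA and ETS1 siRNA library; points are genes coloured by role and lines are medians. ETS1 siRNA replicate 1 has a median of -0.27 and a wide spread, while the medians of the other 5 libraries lie between -0.082 and -0.00013.

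Without ETS1 siRNA replicate 1, a test of 2 libraries against 3, 8 proteasome genes were lower with ETS1 siRNA (18.6% of 43, beside 13% of all genes) and 3 higher (6.98%, beside 9.96%). PSMD6, a lid subunit, had 90.1 and 92.7 CPM in replicates 2 and 3, against 108, 109 and 106 CPM in controls (-0.25, SE 0.033, adjusted p = 3.51e-08, edgeR). Replicate 1, at 113 CPM, lay above those controls. PSMF1 had 101 and 102 CPM, against 113, 109 and 110.3 CPM in controls (-0.13, adjusted p = 0.00167, edgeR), with replicate 1 at 121 CPM. PSME2 had 80.2 and 83.4 CPM, against 86.9, 88.4 and 91.8 CPM in controls (-0.13, adjusted p = 0.00296, edgeR), with replicate 1 at 55.0 CPM. PSMC4 had 125 and 125 CPM, against 136, 133 and 135 CPM in controls (-0.12, adjusted p = 0.00413, edgeR), with replicate 1 at 112 CPM. For PSMC4 and PSME2 all 3 siRNA libraries were lower, while for PSMD6 and PSMF1 replicate 1 was on the other side.

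PSMD9, the chaperone of the ATPase ring also known as p27, had 14.5 and 13.6 CPM without replicate 1, against 16.8, 16.5 and 16.0 CPM in controls (-0.23, adjusted p = 0.00456, edgeR), with replicate 1 at 13.6 CPM. PSMD3 had 179 and 168 CPM, against 182, 183 and 195 CPM in controls (-0.11, adjusted p = 0.0111, edgeR), with replicate 1 at 176 CPM. PSMB5 had 131 and 130.4 CPM, against 134, 139 and 141 CPM in controls (-0.086, adjusted p = 0.0401, edgeR), with replicate 1 at 104 CPM. PSME1 had 127 and 140.1 CPM, against 139, 142 and 148 CPM in controls (-0.11, adjusted p = 0.0192, edgeR), with replicate 1 at 91.2 CPM; one of its libraries lay within the controls. The 3 called higher were the alpha ring genes PSMA1 (0.24, adjusted p = 0.0002, edgeR), PSMA2 (0.50, adjusted p = 0.01, edgeR) and PSMA4 (0.089, adjusted p = 0.0236, edgeR). PSMA1 had 31.4 and 29.5 CPM in replicates 2 and 3, against 27.1, 25.3 and 25.1 CPM in controls, with replicate 1 at 26.5 CPM. PSMA2 had 2.69 and 4.05 CPM, against 2.25, 2.51 and 2.22 CPM in controls, with replicate 1 at 4.14 CPM. PSMA1 and PSMA2 are among the genes that share exons with a neighbour.

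Other members of the functional classes did not pass with ETS1 siRNA, with or without replicate 1 (without a correction for GC content). PSMB6 had 56.8, 89.0 and 90.5 CPM with ETS1 siRNA, against 93.9, 94.2 and 96.2 CPM in controls, and PSMB7 had 77.6, 114 and 109.8 CPM, against 113, 116 and 121 CPM. PSMD2 had 323, 418 and 424 CPM, against 419, 410.1 and 416 CPM in controls, PSMD4 147, 206 and 210.3 CPM, against 217, 213 and 222 CPM, and PSMD14 69.4, 82.9 and 84.1 CPM, against 82.5, 84.9 and 78.3 CPM. In each of these replicate 1 was the lowest of the 6 libraries. PSMD5 had 85.0, 70.0 and 73.8 CPM, against 69.6, 67.7 and 64.7 CPM in controls, and PSMG2 54.0, 48.8 and 48.2 CPM, against 46.1, 46.8 and 45.1 CPM, with all siRNA libraries above the controls in both. PSMG1 had 46.7, 48.5 and 46.3 CPM, against 45.7, 47.0 and 46.0 CPM in controls, and PSME3 had 276, 245 and 240.1 CPM, against 253, 251 and 246 CPM. PSMG4 had 19.1, 24.1 and 24.6 CPM, against 22.5, 23.2 and 23.8 CPM in controls, and PSMD10 had 57.1, 75.4 and 75.8 CPM, against 73.2, 73.7 and 71.8 CPM. The groups overlapped in these 4 genes.

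Between the experiments, 4 genes were lower with both siRNAs when ETS1 siRNA replicate 1 was left out: PSMB5, PSMC4, PSMD3 and PSME1. They are 23.5% of the 17 called with ZNF783 siRNA and 4 of the 8 called with ETS1 siRNA, or 9.30% of the 43 genes, beside 5.42% of the 17548 genes tested in both experiments. No proteasome gene was higher with both, beside 3.61% of all genes. When GC content and length were corrected for, all 4 lost their call with ETS1 siRNA, and PSME1 also its call with ZNF783 siRNA. Under that correction 7 others were lower with both, PSMA3, PSMA5, PSMB1, PSMC2, PSMC5, PSMD6 and PSMD14, and PSMG2 was higher with both. The share of all genes called with both under the correction was not computed. These corrected shared calls thus have no general rate to be set beside. The effect of ETS1 siRNA minus that of ZNF783 siRNA was tested in one fit of all libraries. It was called for 0 of the 43, beside 1.11% of all genes with a higher and 0.577% with a lower difference (edgeR). In that fit 4 had an unadjusted p below 0.05, beside 2928 of 19594 genes. DESeq2 called 0 of the 43, beside 384 higher and 287 lower of 19594 genes. Without ETS1 siRNA replicate 1 the difference was called higher for 6 (PSMA1, PSMA4, PSMD2, PSMD11, PSMD13 and PSMD14), beside 6.25% of all genes, and lower for 2 (PSMD6 and PSME2), beside 7.41%. For PSMD2 it was 0.21 (log2, SE 0.035, adjusted p = 1.11e-05, edgeR), and for PSMD13 it was 0.20 (SE 0.043, adjusted p = 0.000556, edgeR). For PSMD6 it was -0.18 (SE 0.046, adjusted p = 0.00425, edgeR).

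Fold changes ran with base composition in both experiments, with ETS1 siRNA replicate 1 included. The relation without that library was not computed. Over 10370 genes of at least 10 CPM, Spearman's rho between transcript GC content and log2 fold change was -0.53 with ZNF783 siRNA and -0.64 with ETS1 siRNA, and over the 43 proteasome genes it was -0.29 and -0.50 (descriptions; genes of one library share its depth and composition). With a GC and length correction, 22 proteasome genes were lower with ZNF783 siRNA, beside 10.6% of all genes, and 1 was higher, beside 8.73%. Of the 17 called without it, 13 were among those 22, and PSMB6, PSMC3, PSME1 and PSMG3 were lost. With the same correction and without ETS1 siRNA replicate 1, 10 were lower with ETS1 siRNA, beside 10.8% of all genes, and 4 higher, beside 8.76%. Of the 8 called lower without it, PSMD6, PSMD9, PSME2 and PSMF1 kept their call, and PSMB5, PSMC4, PSMD3 and PSME1 lost it. Of the 3 called higher, PSMA1 and PSMA2 kept theirs and PSMA4 lost it.

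Genes that work with the proteasome but do not carry a PSM symbol were examined as lists. Of 18 partners of the particle, 2 were lower and 2 higher with ZNF783 siRNA, beside 13.8% of all genes lower and 11.3% higher. The same shares of all genes stand beside the ZNF783 counts of the lists that follow. SEM1, the smallest lid subunit, fell to 76.6, 79.0 and 82.6 CPM, against 97.9, 101 and 86.0 CPM in controls (-0.26, SE 0.05, adjusted p = 0.000729, edgeR). The ubiquitin ligase UBE3A and the proteasome adaptor ECPAS were higher (0.13 each, adjusted p = 0.000712 and 0.000533, edgeR). The core chaperone POMP (-0.061), the receptor ADRM1 (-0.11) and the deubiquitinases UCHL5 (-0.073) and USP14 (0.072) did not pass.

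Of 12 genes of the NFE2L1 pathway, 7 were lower and 2 higher with ZNF783 siRNA, beside 13.8% and 11.3% of all genes. NFE2L1 itself fell to 294, 294 and 300.3 CPM, against 322, 318 and 323 CPM in controls (-0.12, SE 0.026, adjusted p = 0.000568, edgeR). VCP, the segregase that extracts NFE2L1 from the endoplasmic reticulum, fell to 506, 497 and 499.9 CPM, against 562, 562 and 561 CPM (-0.16, SE 0.024, adjusted p = 1.09e-06, edgeR), and its cofactor NPLOC4 to 233, 222 and 226 CPM, against 253, 255 and 253 CPM (-0.16, adjusted p = 2.41e-05, edgeR). The ligase SYVN1 fell to 78.3, 80.3 and 77.0 CPM, against 88.2, 97.3 and 89.3 CPM (-0.22, adjusted p = 2.53e-05, edgeR). The 2 higher genes were DDI2, the protease that cleaves NFE2L1 (0.087, adjusted p = 0.0253, edgeR), and NGLY1, which removes its sugars (0.14, adjusted p = 0.0284, edgeR). The direction therefore differed within the pathway.

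Of 7 ubiquitin precursor and E1 genes, 2 were lower with ZNF783 siRNA, among them UBA1, the main E1 enzyme (-0.19, adjusted p = 1.16e-07, edgeR), and none was higher. Of 13 antigen processing partners of the immunoproteasome, 10 could be tested; ERAP1 (0.39, adjusted p = 2.03e-06, edgeR), ERAP2 and B2M were higher, and HLA-C (-0.20, adjusted p = 0.000706, edgeR) and NLRC5 lower. With ETS1 siRNA 0 genes of these 4 lists were called by edgeR, beside 0.0256% of all genes higher and 0.0205% lower. Without its replicate 1 the counts were 3 higher and 2 lower of 18 partners, and 1 and 3 of 12 NFE2L1 pathway genes. They were 0 and 5 of 7 ubiquitin and E1 genes, and 1 and 2 of 9 antigen processing genes. In that fit 9.96% of all genes were higher and 13% lower.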

How the data were processed

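RNA-seq of 12 libraries of 22Rv1 cells was analysed from gene counts. As deposited, the values are unnormalized read counts, made with featureCounts 2.0.1 over exons on paired-end alignments, per the file headers; no strand option appears there, and no aligner version. Groups and replicate numbers come from the labels. Symbols were matched by identifier. Each experiment was fitted with edgeR 4.0.16 (R 4.3.3): default expression filter, TMM scaling, robust quasi-likelihood F test on the group, Benjamini-Hochberg adjustment over all genes, call below 0.05. Levels are TMM-scaled CPM, or TPM from exon lengths of GENCODE 29, since the tables hold no length column. Exon overlaps are also those of GENCODE 29, while the counts were made with a different annotation. The difference of effects used all 12 libraries. DESeq2 1.42.0, limma-voom (limma 3.58.1), other scalings and filters, a GC and length correction, a replicate block and leaving out each library were tried. The fits were tested on simulated data: with ETS1 siRNA, edgeR recovered 50 of 100 genes changed by 0.5 log2 and 96 of 100 changed by 1 log2, among 19542 genes; with ZNF783 siRNA 97 and 98 of 100, among 17630. Every proteasome gene called with ZNF783 siRNA changed by less than 0.5 log2, so this recovery does not cover changes of their size. No simulated library was made to stand apart as ETS1 siRNA replicate 1 did. Per the depth of each library, 3 counts correspond to 0.0612 to 0.222 CPM, which covers counting error alone.

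Values in every library are given for catalytic and alternative subunits, PSMD14, PSMD2, PSMD4, activators, inhibitor and chaperones, and for the 6 called genes of smallest adjusted p in each direction; partner lists name up to 4 called genes and 6 fixed ones. Values of some genes of these lists are not reported here. The members and lists were chosen with earlier results of these data known. Promoter sequences are from RefSeq.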

Additional observations from a re-analysis of the deposited data

Results flagged for a closer look

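SEL1L, an adaptor of the endoplasmic reticulum ligase complex in the NFE2L1 pathway list, was picked out because the effects of the 2 siRNAs on it differed by a test of the difference itself. It had 227, 201 and 198 CPM with ETS1 siRNA, against 177, 178 and 173 CPM in its controls, and 191, 190.4 and 192 CPM with ZNF783 siRNA, against 206, 205 and 210.2 CPM in its controls. The effect of ETS1 siRNA minus that of ZNF783 siRNA was 0.37 (log2, SE 0.071, adjusted p = 0.0189, edgeR, all 12 libraries). It was 0.29 (SE 0.039) without ETS1 siRNA replicate 1.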

How the results depend on the processing

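With ZNF783 siRNA, main counts were 17 lower and 2 higher. Lower counts were 10 with DESeq2, 10 with no expression filter, 10 at an adjusted p below 0.01, 2 in the fit of all 12 libraries, and 10 to 14 with 1 library left out; higher counts were 0, 2, 0, 0 and 0 to 3, and 1 with limma-voom, with quality weights and with the GC and length correction. PSMC4 and PSMD3 passed under all 18 alternatives; PSMD2, PSMD13, PSMB5, PSMA7 and PSMD4 were lost only in the fit of all 12 libraries. PSMD5, PSME1 and PSME3 passed under 6 of the 18 and the remaining 9 called genes under 9 to 16. The median log2 fold change was -0.087 with the GC and length correction, -0.089 with the replicate block beside it, and -0.069 to -0.055 with 1 library left out; the summed level was 93.8% of control as TMM-scaled CPM per kilobase. With ETS1 siRNA, lower counts of 0 became 2 in the fit of all 12 libraries, 5 with quality weights, 8 without replicate 1 and 10 with the GC correction too, and higher counts 1, 1, 3 and 4. Over all genes, 900 of 19594 were lower and 975 higher in the fit of all 12 libraries. With quality weights 1967 of 19542 genes were lower and 1896 higher. Leaving out each library gave 0 to 8 lower and 0 to 3 higher proteasome genes, and medians of -0.13 to -0.022. Over all genes it gave 0 to 2633 lower and 0 to 2016 higher. For the difference, quality weights gave 6 higher and 1 lower, leaving out a library 0 to 6 higher and 0 to 2 lower, and leaving out ETS1 siRNA replicate 1 with the GC correction 7 and 2. Over all genes, quality weights gave 1398 higher and 1105 lower of 19594. Leaving out a library gave 90 to 1251 higher and 50 to 1484 lower over all genes. The GC-corrected fit without ETS1 siRNA replicate 1 gave 1491 higher and 1699 lower of 20018. Without ETS1 siRNA replicate 1 signs turned for B2M with ETS1 siRNA (0.13; -0.11 to 0.13 over the libraries left out) and VCP in the difference (0.10; -0.095 to 0.10 over the libraries left out, and 0.11 with the GC correction), and with that correction also for PSMD2 with ETS1 siRNA (0.073) and PSMA7 in the difference (0.12); the cause was not tested. Same-numbered libraries did not deviate together (correlations of deviations 0.09, -0.23 and 0.29 in the ETS1 experiment, -0.08, -0.05 and -0.05 in the other); with the replicate block 18 were lower and 3 higher with ZNF783 siRNA, and 0 with ETS1 siRNA and for the difference. Over all genes, the replicate block gave 2479 lower and 1997 higher of 17630 with ZNF783 siRNA, and 0 of 19542 in either direction with ETS1 siRNA. For the difference it gave 35 higher and 19 lower of 19594. Depth limits PSMA2 and PSMB10, with 880 and 706 counts over 12 libraries.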
